A study of Mus musculus with 6 samples.

Results

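Rbmx, Rbmxl1, Rbm12, Rbm12b1 and Rbm12b2 encode nuclear RNA-binding proteins of the RBMX and RBM12 families in the mouse. These 5 genes, of 54532 listed and 19452 tested, were picked by symbol when read counts of the same libraries were already known, so their differences between groups are described here without a test. All 5 passed the filter of 10 reads summed over the libraries. Poly(A)+ RNA was sequenced from Flp-In 3T3 cells, an established line of mouse embryonic fibroblasts, in 2 groups of 3 libraries. SAFB KD cells had received a mixture of siRNAs against Safb, Safb2 and Sltm, whereas control cells had received a control siRNA. Both groups came from 1 cell line and were harvested days after transfection, and the knockdown left part of each target transcript. The comparison asked what the joint loss of the SAFB proteins does to the poly(A)+ transcriptome, and here to RNA-binding proteins that include known partners of SAFB.

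RBMX, also called hnRNP G, joins an RNA recognition motif to a long low-complexity tail and acts in splice site choice, often together with TRA2B. It is also known for its part in sister chromatid cohesion and, in human cells, for keeping ultra-long exons of genome stability genes intact. Rbmxl1 is a retrocopy of Rbmx, which arose through reverse transcription of its mRNA and has no intron in its coding sequence. RBM12 and its relatives of the RBM12B type are larger proteins with several RNA recognition motifs, and human RBM12 is known to restrain cyclic AMP signalling. Mice carry RBM12B as the tandem copies Rbm12b1 and Rbm12b2.

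The genomic structure of the members mattered for their counts. Rbmx (ENSMUSG00000031134) lay on the minus strand of chromosome X at 57383530 to 57393036 (GRCm38, GENCODE annotation), with 8 coding exons and 6 annotated transcripts, 1 of them of the nonsense-mediated decay type. Rbmxl1 (ENSMUSG00000037070) lay on the minus strand of chromosome 8 at 78505269 to 78508898, with its whole open reading frame of 1164 bases in 1 exon, joined to an upstream noncoding exon by splicing. Rbm12 (ENSMUSG00000089824) lay on the minus strand of chromosome 2 at 156091958 to 156111978. Its 2976 coding bases also lay in 1 exon, which was 6415 bases long, longer than the longest exon of 97.2% of the 13490 tested protein-coding genes. Rbm12b2 (ENSMUSG00000052137) and Rbm12b1 (ENSMUSG00000046667) followed each other on the plus strand of chromosome 4, at 12089439 to 12096243 and at 12140264 to 12146731, each with its coding sequence (2502 and 2508 bases) in 1 exon.

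The members formed 2 pairs of copies that differed in how far they had diverged. Over 1164 aligned coding bases, Rbmx and Rbmxl1 were 90.9% identical and differed at 106. Over 2502 aligned coding bases, Rbm12b1 and Rbm12b2 were 98.1% identical and differed at 48. The first window of 120 coding bases was picked as a stretch, aligned without gaps, with the most GAAGAA matches in both copies together. It also lets a reader see how a read is told apart between Rbmx and Rbmxl1. It runs 5′ to 3′ in the sense direction, and capitals mark the 14 bases that differ between the copies (Rbmx at chrX:57389419-57389538, minus strand, and Rbmxl1 at chr8:78506181-78506300, minus strand, GRCm38). The Rbmxl1 window ends in the only coding match of that gene to the hexamer GAAGAA, and the Rbmx window holds none.
Rbmx: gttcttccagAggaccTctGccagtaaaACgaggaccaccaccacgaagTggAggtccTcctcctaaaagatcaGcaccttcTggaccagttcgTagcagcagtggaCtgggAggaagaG
Rbmxl1: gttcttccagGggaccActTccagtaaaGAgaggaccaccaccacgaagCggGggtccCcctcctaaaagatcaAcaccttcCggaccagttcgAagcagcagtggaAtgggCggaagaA

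The differences between Rbm12b1 and Rbm12b2 were gathered in few places. The window of 120 coding bases with the most differences held 24 of the 48, marked by capitals below (Rbm12b1 at chr4:12146231-12146350 and Rbm12b2 at chr4:12095338-12095457, both on the plus strand, GRCm38). Reads that span these bases differ between the copies.
Rbm12b1: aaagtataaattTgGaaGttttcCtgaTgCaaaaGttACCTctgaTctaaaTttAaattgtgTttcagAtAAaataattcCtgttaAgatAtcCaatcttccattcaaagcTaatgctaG
Rbm12b2: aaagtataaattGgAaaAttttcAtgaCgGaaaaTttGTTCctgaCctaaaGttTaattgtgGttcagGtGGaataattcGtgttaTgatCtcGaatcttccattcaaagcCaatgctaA

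By contrast, a window nearer the start codon was the same in both copies (Rbm12b1 at chr4:12144261-12144380 and Rbm12b2 at chr4:12093374-12093493, plus strand, GRCm38). A read wholly inside it fits both copies, although its mate, in the paired reads that the study describes, may fall where they differ. The window was picked in the same way as the first. Capitals mark overlapping matches to GAAGAA, the purine-rich hexamer that the study describes as a binding motif of SAFB proteins.
Rbm12b1 and Rbm12b2: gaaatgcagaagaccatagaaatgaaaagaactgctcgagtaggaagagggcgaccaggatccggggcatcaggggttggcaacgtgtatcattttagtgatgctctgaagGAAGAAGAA

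Gene counts of the kind used here keep reads that align to 1 place only. The members differed in how much sequence they shared with annotated transcripts of other loci. The genome itself was not searched, and a mate may place a read that lies in shared sequence. The shares below are therefore not shares of countable reads. Every window of 100 bases in the annotated transcripts of a member was looked up in the transcripts of all other annotated genes, on both strands. For Rbmx, 100% of 4614 windows occurred in no transcript of another locus. For Rbm12 the share was also 100% (6880 windows), but 32.6% of its windows lay in exons of overlapping genes on the same strand, mainly Gm28036 and also Cpne1, and reads there are given to no gene. The share was 40.0% for Rbmxl1, 48.5% for Rbm12b1 and 51.9% for Rbm12b2. Rbmxl1 shared 57.9% of its windows with Gm7324, a gene on chromosome 14 annotated as protein coding whose sequence was 99.7% identical to the Rbmxl1 open reading frame, and 18.1% with the processed pseudogene Gm7192 on chromosome 8. The values of Rbmxl1, Rbm12b1, Rbm12b2 and Gm7324 are hence uncertain in level, since reads that fit several places are not counted, and the number so lost was not analysed here.

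**Figure D1:**
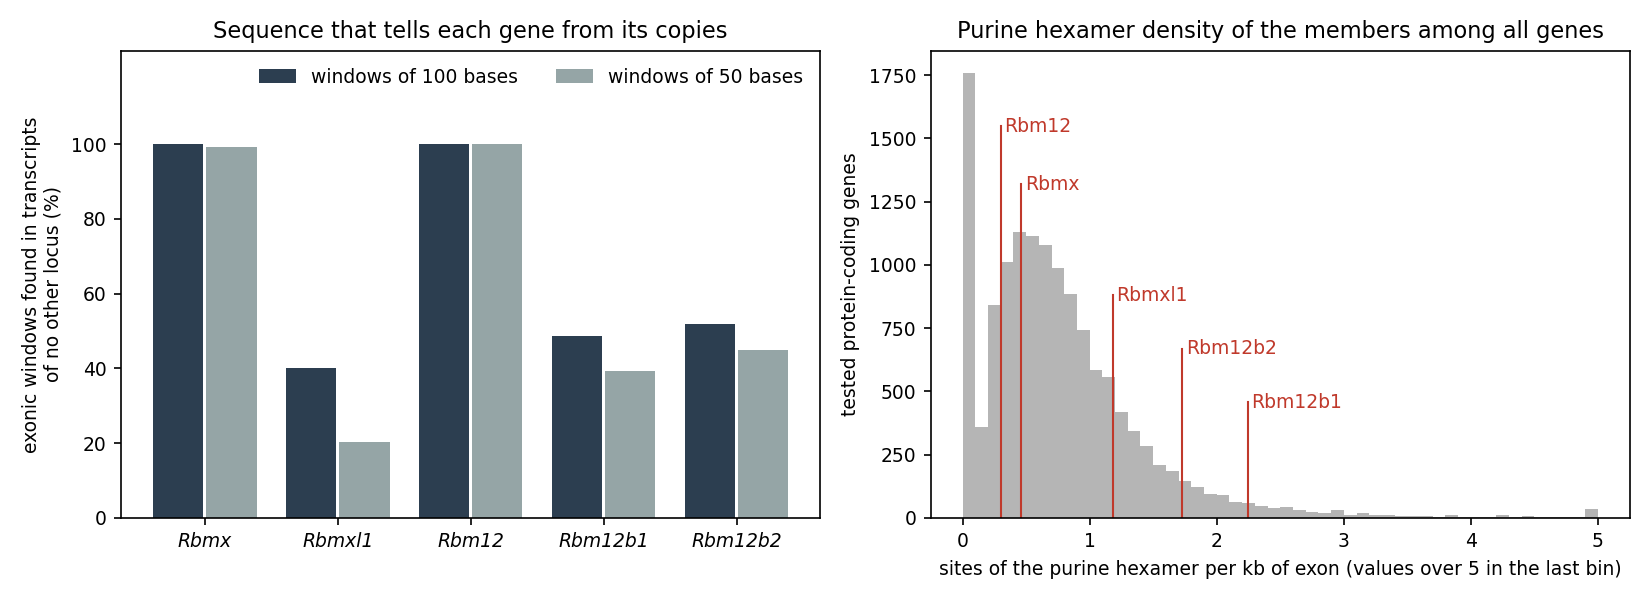
Left, percentage of exonic windows of each gene that occur in transcripts of no other locus, for windows of 100 bases (dark) and 50 bases (light); Rbmx and Rbm12 sit at or near 100% and the other genes at 51.9% or below. Right, number of tested protein-coding genes (y axis) by the density of the purine hexamer in their exons (x axis, sites per kb), with a red line at each member; Rbm12b1 and Rbm12b2 lie in the upper tail, and Rbmx and Rbm12 lie below the median of 0.648.

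The libraries held 33323307 to 53441129 counts. All 3 targets were lower in SAFB KD cells by edgeR's quasi-likelihood test. Safb reached 46.6 CPM (counts scaled to library size by TMM, on a common scale for all libraries) in SAFB KD cells, against 93.7 CPM in control cells (log2 fold change -1.01, SE 0.040, adjusted p = 6.56e-23), Safb2 30.0 against 46.9 CPM (-0.64, SE 0.047, adjusted p = 1.28e-14) and Sltm 61.6 against 100.2 CPM (-0.70, SE 0.037, adjusted p = 9.40e-19). The first principal component of log2 CPM (44.9% of the variance) separated the groups, and control 3 stood apart from the other controls on the second (-44.2, against 23.1 and 26.5). The 9 fibroblast markers summed to 17445 to 17914 CPM in SAFB KD libraries and to 18828 to 20745 CPM in control libraries, and Pdgfra and Pdgfrb were the most reduced of them (-1.36 and -1.13). The leukocyte markers summed to 11.8 to 13.6 CPM in SAFB KD libraries and to 8.0 to 8.32 CPM in control libraries, mainly through Cd68 (called higher) and Csf1r, with Ptprc at 4 reads in all. Endothelial (9.38 to 10.4 CPM in SAFB KD, 7.89 to 8.39 CPM in control) and muscle markers (3.58 to 4.45 CPM in SAFB KD, 2.65 to 3.10 CPM in control) were also somewhat higher, with Kdr, Myod1 and Myog at 0 reads, and epithelial markers stayed at or under 0.995 CPM, with Epcam at 0. The part of these markers in the results was not tested. In bulk RNA, fewer cells of a kind and less RNA per cell cannot be told apart.

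Rbmx was the member that differed most. It had 67.8, 62.1 and 66.2 CPM in the 3 SAFB KD libraries, against 20.1, 20.9 and 22.5 CPM in the 3 control libraries. The lowest SAFB KD value was well above the highest control value, and the groups did not overlap. Rbmx averaged 65.3 ± 2.93 CPM in SAFB KD cells and 21.2 ± 1.21 CPM in control cells (SD, n = 3 each), 3.09-fold higher in SAFB KD cells (log2 fold change 1.63, SE 0.050). By log2 fold change it stood 56th from the top among the 12103 tested genes whose mean reached 1 CPM. Without control 3, the library that stood apart, the log2 fold change of Rbmx was 1.66.

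Rbmxl1, the retrocopy, went the other way. Its values were 61.7, 59.4 and 61.9 CPM in SAFB KD libraries, against 74.7, 71.9 and 73.0 CPM in control libraries, again without overlap. The means were 61.0 ± 1.41 CPM in SAFB KD cells and 73.2 ± 1.41 CPM in control cells (SD, n = 3 each), 1.20-fold lower in SAFB KD cells (log2 fold change -0.26, SE 0.038; -0.28 without control 3). Gm7324, 99.7% identical to the Rbmxl1 open reading frame over the aligned bases, had a difference of the opposite sign in its uniquely aligned reads. It had 7.99, 7.10 and 7.99 CPM in SAFB KD libraries, against 4.59, 6.20 and 5.42 CPM in control libraries, and was called higher (log2 fold change 0.51, SE 0.10, edgeR adjusted p = 7.73e-05). Gm7192 had 28 reads over all libraries, and Gm9771, another pseudogene that shares short stretches with Rbmx, had 0.

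Rbm12b2 and Rbm12b1, the tandem copies, were both higher in SAFB KD cells. Rbm12b2 had 22.6, 24.0 and 24.0 CPM in SAFB KD libraries, against 11.6, 12.1 and 14.3 CPM in control libraries. Control 3 held the highest of the control values, yet the groups did not overlap. The means were 23.5 ± 0.797 CPM in SAFB KD cells and 12.7 ± 1.48 CPM in control cells (SD, n = 3 each), 1.87-fold higher in SAFB KD cells (log2 fold change 0.90, SE 0.069), and the log2 fold change was 0.98 without control 3. Rbm12b1 had 15.7, 13.7 and 14.5 CPM in SAFB KD libraries, against 9.49, 9.43 and 8.66 CPM in control libraries. Here control 3 held the lowest value, and the groups did not overlap either. Its means were 14.6 ± 1.0 CPM in SAFB KD cells and 9.19 ± 0.462 CPM in control cells (SD, n = 3 each), 1.58-fold higher in SAFB KD cells (log2 fold change 0.66, SE 0.076; 0.61 without control 3). Rbm12b2 stood 188th and Rbm12b1 380th from the top among the 12103 genes.

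Rbm12, which gives the RBM12 group its name, showed the smallest difference. It had 34.0, 30.9 and 32.3 CPM in SAFB KD libraries, against 31.2, 29.4 and 30.6 CPM in control libraries, so that the groups overlapped. The means were 32.4 ± 1.59 CPM in SAFB KD cells and 30.4 ± 0.917 CPM in control cells (SD, n = 3 each), with a log2 fold change of 0.09 (SE 0.052; 0.08 without control 3). It was not called.

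Of the 5 members, 4 were called, 3 higher and 1 lower, beside 41.5% of all genes tested in either direction, 21.4% higher and 20.1% lower. A rise beyond 2-fold was called for 1 member, beside 0.699% of all genes tested. The groups did not overlap for 4 of the 5, beside 49% of all genes tested. Since the members were chosen with this contrast known, nothing is read from these counts. Summed over the 5 members, SAFB KD libraries held 201.8, 190.0 and 198.9 CPM, and control libraries 147.1, 143.7 and 149.1 CPM.

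**Figure D2:**
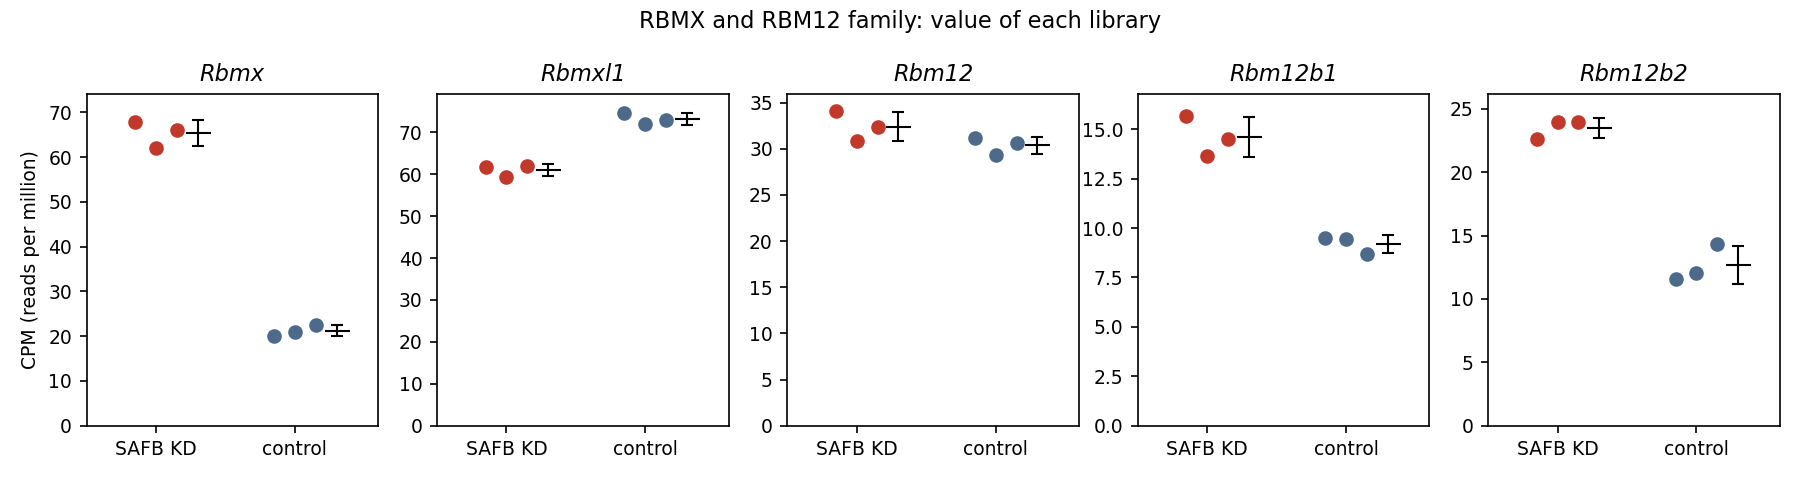
CPM (y axis, starting at 0) of each member in each library of SAFB KD (red, left) and control (blue, right); points are libraries, and the black mark beside them is the mean with its SD (n = 3). Rbmx, Rbm12b1 and Rbm12b2 lie higher in every SAFB KD library than in any control library, Rbmxl1 lies lower, and Rbm12 overlaps.

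The 2 pairs of copies behaved differently within themselves. Rbmx supplied 52.3%, 51.1% and 51.6% of the reads counted for Rbmx and Rbmxl1 together in SAFB KD libraries, against 21.2%, 22.5% and 23.6% in control libraries. The ratio of Rbmx to Rbmxl1 reads averaged 1.07 ± 0.027 in SAFB KD cells and 0.290 ± 0.020 in control cells (SD, n = 3 each). Per kb of exon, which corrects for the longer exons of Rbmx, the Rbmx share was 29.5% ± 0.518 in SAFB KD cells and 10.2% ± 0.620 in control cells, so that Rbmx remained below Rbmxl1 per length in both groups. Their summed CPM was 126.3 ± 4.28 in SAFB KD cells and 94.4 ± 1.35 in control cells, 33.8% higher in SAFB KD cells.

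For the RBM12B copies, Rbm12b2 supplied 59.1%, 63.7% and 62.3% of the shared total in SAFB KD libraries, against 54.9%, 56.1% and 62.4% in control libraries. These shares overlapped, with control 3 inside the SAFB KD range. The summed CPM of both copies was 38.1 ± 0.444 in SAFB KD cells and 21.9 ± 1.02 in control cells (SD, n = 3 each), 74.5% higher in SAFB KD cells. The sum varied less between replicates of SAFB KD than either copy did. In control cells its SD (1.02) was above that of Rbm12b1 (0.462) and below that of Rbm12b2 (1.48).

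**Figure D3:**
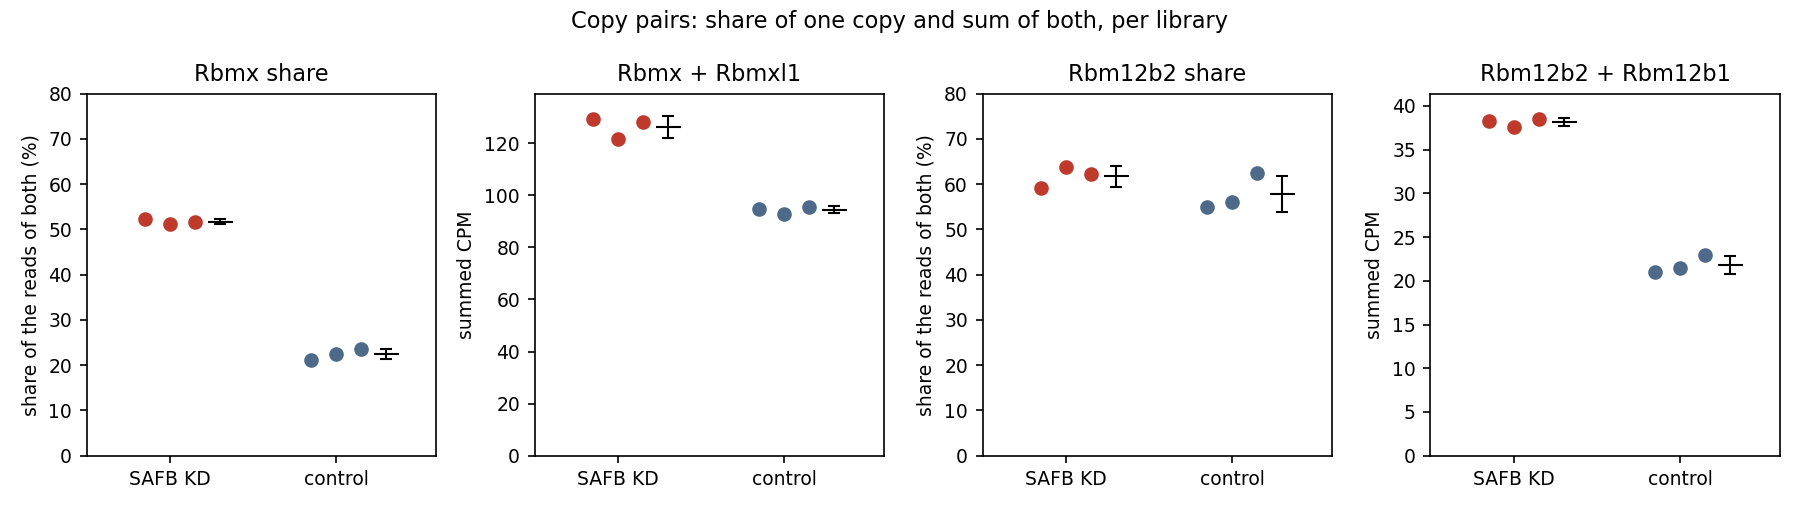
From left to right, share of Rbmx in the reads of Rbmx and Rbmxl1, their summed CPM, share of Rbm12b2 in the reads of Rbm12b2 and Rbm12b1, and their summed CPM, per library of SAFB KD (red) and control (blue), with mean and SD (n = 3) in black. The Rbmx share is 51.1% to 52.3% in SAFB KD and 21.2% to 23.6% in control, whereas the Rbm12b2 share overlaps between groups.

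Levels of different genes were compared per kb of annotated exon. In SAFB KD cells the order was Rbmxl1 (36.0 ± 0.829 CPM per kb), Rbmx (15.1 ± 0.678), Rbm12b2 (6.78 ± 0.230), Rbm12 (4.85 ± 0.237) and Rbm12b1 (4.68 ± 0.321; SD, n = 3 for each). The values of Rbm12 and Rbm12b1 overlapped there, and no other neighbours in this order did. In control cells the order was Rbmxl1 (43.2 ± 0.831 CPM per kb), Rbmx (4.89 ± 0.280), Rbm12 (4.54 ± 0.137), Rbm12b2 (3.65 ± 0.428) and Rbm12b1 (2.95 ± 0.148). In control cells Rbmx (4.65 to 5.20 CPM per kb) and Rbm12 (4.39 to 4.66) overlapped, and again no other neighbours did. Rbmxl1 thus had the highest level of the family in both groups, although much of its sequence is shared with other loci. With the length of the longest transcript in place of all exons, Rbmx came to 21.02 CPM per kb in SAFB KD cells and 6.82 CPM per kb in control cells, above Rbm12 in both. All these lengths include sequence whose reads may not be counted. Of the windows of 100 bases, 48.5% for Rbm12b1 and 51.9% for Rbm12b2 occurred at no other locus. For Rbm12, 32.6% lay in overlapping genes on the same strand. The order of Rbmx and the RBM12 genes was not corrected for this and may differ from that of their true levels.

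**Figure D4:**
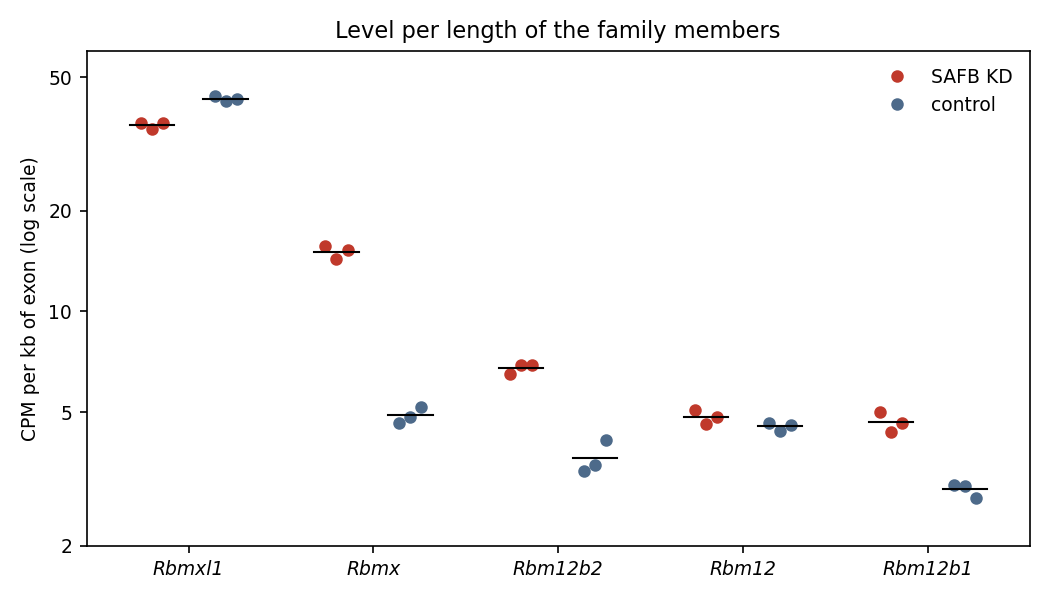
CPM per kb of exon (y axis, log scale) of each member in SAFB KD (red, left) and control (blue, right) libraries; points are libraries and lines are means (n = 3). Rbmxl1 is highest in both groups, and Rbmx stands between Rbmxl1 and the RBM12 genes in SAFB KD but close to Rbm12 in control. Lengths were not corrected for sequence whose reads may not be counted.

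Of 12 tested genes that overlapped a member or lay nearest to it, 1 was called higher and 2 lower, beside 41.5% of all genes called in either direction. The tested genes nearest to Rbmx, Arhgef6 and Gm364, had 78 and 26 reads over all libraries and were not called. Beside Rbmxl1, Slc10a7, a gene for a solute carrier that starts 447 bases away on the other strand, had 32.4, 32.3 and 32.1 CPM in SAFB KD libraries, against 52.4, 46.1 and 48.6 CPM in control libraries (log2 fold change -0.60, SE 0.048, edgeR adjusted p = 1.49e-13). Gm2225, on the other side of Rbmxl1, was not called. Of the genes at the Rbm12 locus, Cpne1 had 29 reads, Gm28036 had 0 and Gm37274 was not called, while Nfs1, which encodes the mitochondrial cysteine desulfurase, reached 36.5 ± 0.313 CPM in SAFB KD cells, against 26.4 ± 1.14 CPM in control cells (log2 fold change 0.47, SE 0.051, edgeR adjusted p = 4.47e-10). Gm28036 spans nearly all of Cpne1 on the same strand. Reads in exons that both share are given to no gene, so the counts of Cpne1 and Gm28036 do not give their levels.

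On chromosome 4, Tmem67, a gene for a ciliary membrane protein whose exons overlap 8.33% of the exonic bases of Rbm12b2 on the opposite strand, had 8.89 ± 0.085 CPM in SAFB KD cells and 10.1 ± 0.517 CPM in control cells (SD, n = 3 each) and was not called (log2 fold change -0.18, SE 0.081, edgeR adjusted p = 0.0761). Fam92a, which lies 6677 bases beyond Rbm12b1, had 74.3 ± 0.924 CPM in SAFB KD cells and 72.4 ± 4.35 CPM in control cells (log2 fold change 0.04, SE 0.039, edgeR adjusted p = 0.455). The pseudogenes Gm11843 and Gm11841 and the transcript 1700123M08Rik had few reads (44, 86 and 294 over all libraries). Gm11841 was called lower (log2 fold change -1.24, edgeR adjusted p = 0.0264), but not without control 1 (adjusted p = 0.0924) or without SAFB KD 3 (adjusted p = 0.179). None of these neighbours on chromosome 4 was called higher.

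Among relatives outside the family list, Rbmx2, which encodes a spliceosomal RNA-binding protein that shares the name but not the gene family, had 21.5 CPM in SAFB KD cells and 16.7 CPM in control cells and was called higher (log2 fold change 0.38, SE 0.065, edgeR adjusted p = 6.88e-06). Rbmxl2, the testis-specific retrocopy, had no read in any library. Of 35 other numbered RBM genes, 30 were tested, of which 12 were called higher, 8 lower and 10 not called, with a median log2 fold change of 0.06 beside 0.01 over all genes tested. Rbm18 rose most among those called (41.5 CPM in SAFB KD cells, against 26.2 CPM in control cells, log2 fold change 0.66). Rbm15b, a partner of the m6A writer complex, fell to 43.7 CPM in SAFB KD cells, against 58.4 CPM in control cells (-0.42). Rbm33 (0.30) and Rbm8a, a core protein of the exon junction complex (0.25), were called higher. The highest value in the list, 1.02 for Rbm42, rested on 23 reads and was not called. All 27 hnRNP genes were tested, and 6 were called higher and 10 lower, with a median of -0.04 and a range of -0.42 to 0.14. Pcbp2 (-0.37), Hnrnph1 (-0.38), Ptbp3 (-0.37) and Ptbp2 (-0.42), which encode splicing regulators or poly(C)-binding proteins, fell. Without control 2, 3 hnRNP genes were called higher in place of 6.

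**Figure D5:**
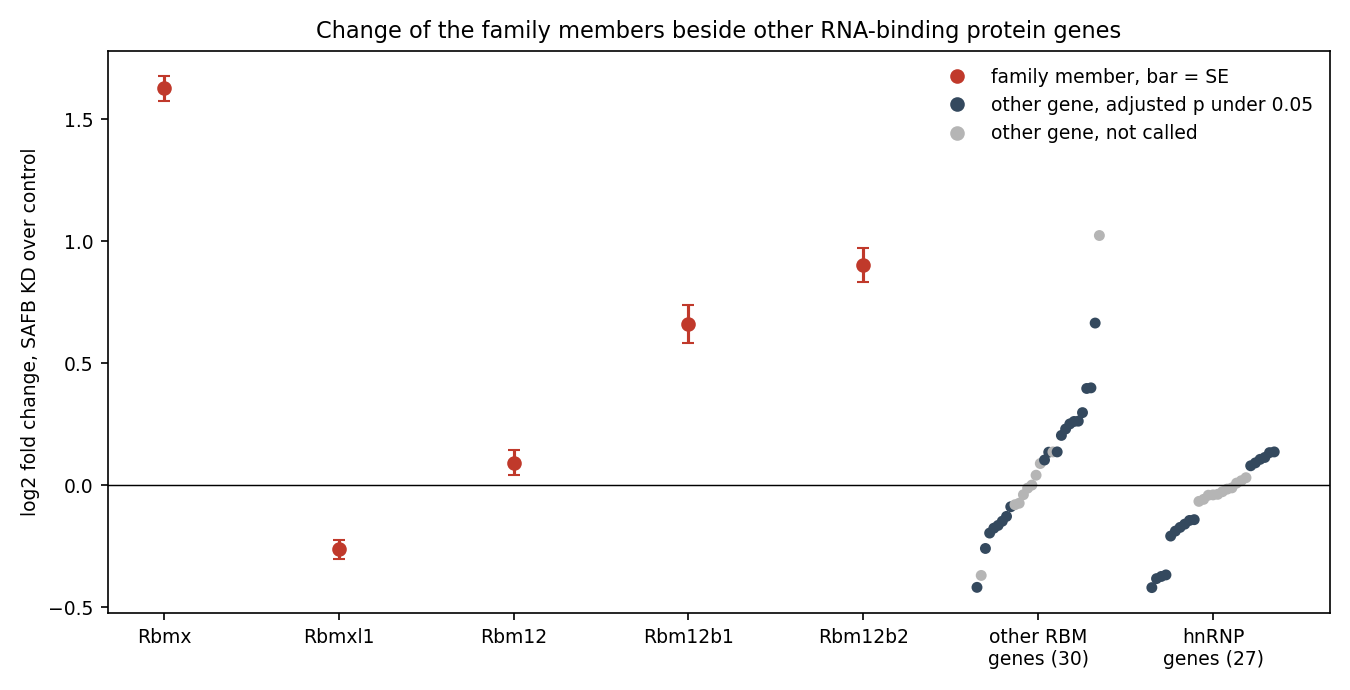
Log2 fold change of SAFB KD over control (y axis) for each member (red, bar = SE), 30 other numbered RBM genes and 27 hnRNP genes; dark points have an adjusted p under 0.05, and grey points were not called. Rbmx, at 1.63, lies above every gene of both lists, whose values run up to 1.02 for Rbm42 (23 reads, not called) and 0.66 for Rbm18 among called genes.

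Of 9 genes for proteins known to bind SAFB or RBMX, 8 were tested, of which 2 were called higher, 5 lower and 1 not called (median log2 fold change -0.11). Zfp638, whose human counterpart encodes a zinc finger protein that silences unintegrated retroviral DNA, was higher, with 210.4 CPM in SAFB KD cells and 168.3 CPM in control cells (0.32). Tra2a and Tra2b, the genes for the splicing activators that pair with RBMX, were lower (-0.19 and -0.10), as was the nuclear receptor coactivator gene Ncoa5 (-0.16). Khdrbs2 had the lowest value (-2.14) on 66 reads. The other gene called higher was Ythdc1 (log2 fold change 0.08, edgeR adjusted p = 0.0433), and 1 gene only, not 2, was called higher in 4 of the 6 fits that left out a library (control 1, control 2, SAFB KD 1 or SAFB KD 3).

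Genes tied to the known roles of the members were counted as well. Like the other lists, these were chosen with earlier results of these data known. The adjusted p values printed for listed genes are therefore a description. Of 4 genes whose ultra-long exons are known to depend on RBMX in human cells, 3 were lower in counts over the whole gene. Use of the ultra-long exons was not measured. Rbmx itself was 3.09-fold higher in SAFB KD cells, and a link between Rbmx and these genes was not tested. Brca2, which encodes the mediator of homologous recombination, had 24.1 CPM in SAFB KD cells and 52.3 CPM in control cells (log2 fold change -1.13, SE 0.048, edgeR adjusted p = 1.09e-21). Rev3l, the gene for the catalytic subunit of DNA polymerase zeta, had 48.5 CPM in SAFB KD cells and 74.1 CPM in control cells (-0.61, SE 0.039, edgeR adjusted p = 2.69e-16), and Atrx, a gene for a chromatin remodeller, had 256.0 CPM in SAFB KD cells and 369.7 CPM in control cells (-0.53, SE 0.035, edgeR adjusted p = 9.04e-16). Etaa1, which encodes an activator of the kinase ATR, had 45.0 CPM in SAFB KD cells and 46.6 CPM in control cells and was not called (-0.05, SE 0.045, edgeR adjusted p = 0.424).

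Of 15 genes of sister chromatid cohesion, 2 were called higher and 6 lower (median log2 fold change -0.07, range -0.26 to 0.29). Pds5b (-0.23), the acetyltransferase gene Esco2 (-0.26) and the cohesin loader gene Nipbl (-0.12) were lower, and Esco1 (0.29) was higher. The count of cohesion genes called higher was 1 without control 1, control 2, SAFB KD 2 or SAFB KD 3. Of 18 genes of the cyclic AMP and protein kinase A pathway, 16 were tested, of which 3 were called higher and 6 lower (median -0.04, range -0.39 to 0.54). The phosphodiesterase gene Pde4a (-0.39) and the kinase gene Sik1 (-0.34) were lower, whereas Pde4b (0.15) and the immediate early gene Nr4a1 (0.16) were higher. The share of tested genes called in either direction was 53.3% for cohesion, 56.2% for cyclic AMP, 59.3% for hnRNP, 66.7% for other RBM, 75% for ultra-long exon and 87.5% for binding partner genes, beside 41.5% of all genes tested. The 41.5% includes many genes with few reads, which are seldom called, whereas most listed genes were well expressed. With edgeR's filterByExpr, which removes more such genes, 3941 of 14776 genes were called higher and 4003 lower. Nothing is read from the shares of the lists.

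The sequence of the transcripts, which the choice of members did not use, was searched for GAAGAA on the sense strand, with overlapping matches counted. Rbm12b1 held 7 sites in its exons (2.24 per kb) and Rbm12b2 held 6 (1.73 per kb), all within the coding sequence, and these densities were above those of 96.6% and 93.1% of the 13490 tested protein-coding genes. Rbmxl1 held 2 sites (1.18 per kb, above 81.2% of genes), 1 of them coding. Rbmx also held 2 (0.46 per kb, above 34.7% of genes), but its longest transcript held 0 per kb. Rbm12 held 2 (0.30 per kb, above 21.9% of genes), and neither Rbmx nor Rbm12 had a coding site. The median gene had 0.648 sites per kb, and 87.1% of genes had at least 1 site. Introns were not searched, and a link of these densities to the differences in RNA was not tested. Adenine made up 26.8% to 28.7% of the exonic bases of the members, against a median of 25.2% over genes. A match is a description of the sequence only, and binding was not analysed here.

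The genes with the most similar pattern over the 6 libraries, by Pearson's r of log2 CPM among 12102 tested genes whose mean reached 1 CPM, are given as a description. The libraries fall into 2 groups, so a high r chiefly repeats the group difference. For Rbmx these were Pdk1 (0.9999), Spryd3 (0.9998), Prl2c2 (0.9996), Pls3 (0.9996) and Cdk1 (0.9995), with log2 fold changes of 0.58, 0.29, 1.96, 0.42 and 0.20. For Rbmxl1 they were Cttnbp2nl, Tnrc18 and Itga1 (r of 0.9982 to 0.9988), all lower in SAFB KD cells. For Rbm12b2 they were Gss, Snhg8 and Gtpbp2 (0.9991 to 0.9993), for Rbm12b1 Mdh2, Cfap298 and Klhl21 (0.9986 to 0.9992), and for Rbm12 they included Znrd1as (0.9829) and Mrps15 (0.9790).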

How the data were processed

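Reads were trimmed by the authors before alignment (STAR 2.7.9a, GRCm38), and the deposited values were raw read counts per gene, inferred to be the reverse-stranded counts of the aligner, for strand-specific poly(A)+ libraries. Such counts leave out reads that fit several places or overlapping genes. Per the submitters' processing notes, mm10 and deepTools 3.5.1 were also used.

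Groups came from the sample titles. Identifiers were matched to GENCODE M21 (54495 of 54532; the study used another GENCODE release). Genes with under 10 reads over 6 libraries were removed (35080), and 19452 were fitted with edgeR 4.0.16 (TMM, quasi-likelihood, R 4.3.3), with Benjamini-Hochberg adjusted p under 0.05, and glmTreat at a log2 threshold of 1 for changes beyond 2-fold. SE is approximate, set to match the test. The biological coefficient of variation was 3.49%. In simulated counts for these 19452 genes, changes were planted in 100 genes per fold, drawn from those with higher expected counts. Of these, 99% of 1.5-fold and 100% of 3-fold changes were recovered, with the same variation set for every gene. Recovery for genes with few reads was not tested. Replicates are called biological in the series text and none held identical values.

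The members and all gene lists were chosen with earlier results of these data known. Named genes were the members, the targets, relatives and genes sharing windows, overlapping and nearest genes, up to 4 genes per list with the smallest adjusted p, and the genes most like each member; Rbm42, Ythdc1, Tra2b and the marker genes were added after their values were seen, and 1 gene that the rule names is not reported here. Windows were sought in annotated transcripts, not in the genome. Coding sequences were aligned with Biopython 1.88. Alternatives were DESeq2 1.42.0, limma-voom (limma 3.58.1), other scaling and filters, each library left out and a replicate block.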

Additional observations from a re-analysis of the deposited data

How the results depend on the processing

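In all 12 alternative fits the 5 members kept their direction and their call. Their log2 fold changes ranged from 1.58 to 1.66 for Rbmx, -0.29 to -0.25 for Rbmxl1, 0.06 to 0.12 for Rbm12 (called in none), 0.61 to 0.70 for Rbm12b1 and 0.83 to 0.98 for Rbm12b2. The sample titles do not say whether replicate numbers pair the libraries, and the main fit assumed no pairs. Deviations of same-numbered libraries correlated at 0.053, 0.015 and -0.0011, and those of differently numbered libraries at -0.041 to 0.026. With 3 libraries per group, these values cannot settle whether pairs existed. With the replicate block Rbmx stood at 1.63, Rbmxl1 at -0.26, Rbm12 at 0.09, Rbm12b1 at 0.67 and Rbm12b2 at 0.90, with 4186 genes called higher and 3931 lower. Beyond 2-fold, 76 genes were called higher and 55 lower with DESeq2 and 79 and 58 with limma-voom, in place of 136 and 102.

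Of 59 other named genes, 52 kept direction and call in all 12 alternatives, and 3 more, Gm364, Gm7192 and Gm11843, did so in the 11 that fitted them, since filterByExpr removed them. Cpne1 (29 reads, log2 fold change 0.00029) came out at -0.0073 with DESeq2 size factors, -0.16 with limma-voom, -0.030 with the replicate block and -0.67 to 0.38 over the fits without 1 library, and Arhgef6 (78 reads, -0.13) at -0.43 to 0.15 over the same fits. Tmem67 was called lower with filterByExpr (adjusted p = 0.0483) or without control 2 (adjusted p = 0.0439), and Gm11841 was not called with DESeq2 (adjusted p = 0.0563). Of the lists, genes binding SAFB or RBMX called higher numbered 1 with DESeq2 size factors, DESeq2 or filterByExpr and 1 to 2 without 1 library; hnRNP genes called higher 3 to 5 without 1 library; and cohesion genes called higher 1 with DESeq2 and 1 to 2 without 1 library. With the longest transcript as length, Rbmx had 21.02 CPM per kb in SAFB KD and 6.82 in control and Rbm12b2 7.07 in SAFB KD, and Rbmx had 0 GAAGAA sites per kb. With windows of 50 bases, 99.3% of Rbmx, 20.4% of Rbmxl1, 39.2% of Rbm12b1 and 44.9% of Rbm12b2 windows occurred at no other locus. Each member had 291 to 3470 reads per library, and copies and overlapping exons remove reads whose number was not analysed here.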
